A study of Mus musculus with 6 samples.

Results

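The microRNA genes numbered Mir290 to Mir499 were examined in cultured mouse embryos. A gene was a member when an array feature named it and no other gene and its symbol was Mir followed by a number in that range, with letters or a hyphenated copy number allowed. This gave 85 members among the 19938 genes that features named singly, out of 291 Mir genes in all. Where a gene has several features, the rule selects on mean signal over all arrays, and members would be chosen by that value alone. Each member had 1 feature, so this step selected nothing and no measured difference entered the choice. Mir290 to Mir295 were not analysed here, so of the clusters linked to pluripotency the members hold the Mir302 and Mir367 genes. A further 18 features named a Mir gene of that range together with other genes and were not used as members.

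The embryos were of the CD1 strain, an outbred stock, with no transgene or mutation in the labels. Narrow samples were collected at embryonic day 5.0 and kept for 8 hours in cavities 90 µm across. Wide samples were kept for the same time in cavities 180 µm across. Each of the 6 samples pooled 30 whole embryos, 3 samples per cavity, and each is named here by its cavity and its replicate number.

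MicroRNAs are cut from longer primary transcripts as hairpins by the Drosha and Dgcr8 complex, exported, and cut again by Dicer1 to short mature strands that Argonaute proteins carry to messenger RNAs. Bases 2 to 8 of the mature strand, the seed, pair with the target, so microRNAs with the same seed share many targets. The miR-302 and miR-367 family is typical of primed pluripotent cells such as the epiblast. A large group of microRNA genes lies in the imprinted Dlk1-Meg3 locus, where the maternal chromosome carries noncoding transcripts (Meg3, Rian, Mirg) that include the hairpins. An array feature covers the gene of the hairpin, so its signal does not tell primary transcript, hairpin and mature strand apart. The column kit named in the labels is made for longer RNA, and levels of mature strands were not measured separately.

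The sequences on which the results turn were taken from RefSeq (build GRCm38.p6), which held hairpin and mature entries for 78 of the 85 members and 146 mature strands. The 3p strands of Mir302b, Mir302c, Mir302d and Mir367, of Mir363 on the X chromosome, and of 4 members of the Dlk1-Meg3 cluster are shown with the seed in capitals, because the first 5 share seed letters and the others are described below for their differences between samples or cavities.
miR-302b-3p: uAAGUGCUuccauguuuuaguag
miR-302c-3p: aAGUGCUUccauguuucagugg
miR-302d-3p: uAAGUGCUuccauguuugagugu
miR-367-3p: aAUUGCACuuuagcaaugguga
miR-363-3p: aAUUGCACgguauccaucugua
miR-377-3p: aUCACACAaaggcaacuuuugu
miR-382-3p: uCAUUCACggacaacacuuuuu
miR-329-3p: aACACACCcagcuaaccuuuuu
miR-323-3p: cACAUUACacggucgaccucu
The seed AAGUGCU was shared by miR-302b-3p and miR-302d-3p. In the table miR-302c-3p begins 1 base later, so its seed reads AGUGCUU, and all 3 strands hold the same 16-base stretch aagugcuuccauguuu. The seed AUUGCAC was shared by miR-367-3p and miR-363-3p, from genes on chromosomes 3 and X. Members with such stretches in common are not independent, and whether their probes tell them apart was not analysed here. Over all members, 14 seeds were shared by at least 2 members, and these held 24 of the members.

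The hairpins of 4 members that were high in the same samples are shown with the mature strands in capitals. Mir302b, Mir302c and Mir302d lie on the plus strand of chromosome 3 at chr3:127545228-127545301, chr3:127545363-127545430 and chr3:127545624-127545689, and Mir377 lies on the plus strand of chromosome 12 at chr12:109740510-109740577.
Mir302b: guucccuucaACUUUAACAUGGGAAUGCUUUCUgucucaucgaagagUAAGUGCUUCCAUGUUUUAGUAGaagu
Mir302c: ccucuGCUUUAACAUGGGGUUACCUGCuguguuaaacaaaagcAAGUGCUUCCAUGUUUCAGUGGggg
Mir302d: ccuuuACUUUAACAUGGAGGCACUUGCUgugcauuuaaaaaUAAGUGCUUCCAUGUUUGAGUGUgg
Mir377: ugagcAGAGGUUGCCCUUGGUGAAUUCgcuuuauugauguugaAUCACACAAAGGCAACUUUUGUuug
The 3 Mir302 hairpins shown also share the seed of their 5p strands, CUUUAAC, whereas the 5p strand of Mir302a has the seed CUUAAAC. The GC content of the hairpins was 39.2% for Mir302b, 47.1% for Mir302c, 39.4% for Mir302d and 41.2% for Mir377, and it ranged from 29.1% to 67.2% over the 78 members with a hairpin entry.

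The arrays had similar overall signal, with feature medians from 7.62 to 7.67 on the log2 scale and correlations over genes from 0.9983 to 0.9991 between arrays. Both arrays numbered 1 stood apart from the other 4 on the first principal component of all genes, which held 38.5% of the variance, at -10.56 for narrow 1 and -8.01 for wide 1, against 2.76 to 5.87 for the rest. The labels do not say what a replicate number stands for. All 5 epiblast markers, all 5 measured visceral endoderm markers and all 5 extraembryonic ectoderm markers lay above the median gene signal, with the dimmest at percentile 81.55. Of markers of other cells, 2 of 5 for decidua and stroma, 0 of 3 for blood, 3 of 3 for parietal endoderm and 1 of 2 for other trophoblast cells lay above that median. In pools of whole embryos, fewer cells of a type and less RNA per cell cannot be told apart.

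Most members were dim on this array. Their mean log2 signals ran from 4.39 to 9.30, their median percentile among all genes was 19.8, and 9 of 85 lay above the median gene. Features of different genes depend on their probes, so these ranks describe the array and say nothing of relative RNA amounts. The members with the highest mean signal were Mir346 (9.17, 9.37 and 9.34 in narrow, against 9.27, 9.27 and 9.36 in wide samples), Mir341, Mir328, Mir320 and Mir483, a microRNA gene within Igf2. At the other end, the X-linked cluster of Mir450-1, Mir450-2 and Mir450b and that of Mir463, Mir465, Mir470 and Mir471 lay between 4.43 and 4.71, near the lowest value in the table of 4.33. Without a background measure, a dim member could not be told from an absent one.

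The first comparison asked whether the width of the cavity changed microRNA gene signal. No member passed the test in either direction after adjustment over all 19938 genes (limma, Benjamini-Hochberg, lowest adjusted p = 0.9999), and neither did any other gene (0% of all genes). At unadjusted p under 0.05, 2 members were lower in narrow cavities (against 1.72% of all genes) and 0 higher (against 1.68%), by limma. Together this is 2.35% of members and 3.4% of all genes. Both belong to the Dlk1-Meg3 cluster. In this unpaired fit the share of members called was below that of all genes. With same-numbered samples as a block it was above it, as given further on.

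Mir323, whose log2 signal was 6.18, 6.19 and 6.13 in narrow samples 1, 2 and 3, against 6.56, 6.43 and 6.32 in wide samples, had a difference of -0.27 ± 0.06 (SE, limma unadjusted p = 0.0026). All narrow values lay below all wide values. Mir496a had 5.78, 5.69 and 5.68 in narrow, against 5.87, 5.80 and 5.82 in wide samples, and a difference of -0.11 ± 0.05 (SE, limma unadjusted p = 0.040). These were also the only 2 members whose narrow values all lay below the wide ones, as in 3.54% of all genes, and 0 members had all narrow values above, as in 4.17% of all genes. With 3 samples against 3, an exact permutation test of a single gene cannot give a p below 0.1.

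The members with the next smallest p had overlapping groups. Mir341 had 9.04, 9.17 and 9.09 in narrow, against 9.23, 9.22 and 9.17 in wide samples, so that its groups met at narrow 2. Mir455 (-0.13 ± 0.06), Mir350 (-0.15 ± 0.07), Mir326 (-0.14 ± 0.07), Mir362 (-0.13 ± 0.07) and Mir301 (-0.13 ± 0.07) had negative differences (SE). On the positive side were Mir302d (0.27 ± 0.12), Mir452 (0.11 ± 0.06), Mir335 (0.07 ± 0.05) and Mir301b (0.08 ± 0.07). None of these passed the test.

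Taking sign alone, 58 members were lower and 27 higher in narrow cavities, 68.2% lower against 49.1% of all genes, and the median difference was -0.03, against 0.00 over all genes. The lean was not particular to the members. Of the 206 Mir genes that are not members 63.6% were lower. So were 83.9% of 31 C/D box (Snord) and 75.0% of 20 H/ACA box (Snora) small nucleolar RNA genes. With the arrays numbered 1 left out, the median of the members was 0.00. Of the 26 members of the Dlk1-Meg3 cluster 20 were lower in narrow cavities, with a median of -0.07. Of the 5 members of the Mir302 and Mir367 cluster 4 were higher, with a median of 0.02. The other 54 members had a median of -0.02, with 37 lower.

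When the replicate number entered the fit as a block, 13 members were at unadjusted p under 0.05 (15.3%, limma) and 12 of them were lower in narrow cavities, against 7.25% of all genes with either sign and 3.72% lower. In the same fit the share with either sign was 12.1% of the Mir genes that are not members, 22.6% of Snord and 20.0% of Snora genes. With the arrays numbered 2 and 3 alone 14 members were at unadjusted p under 0.05 (limma), against 4.58% of all genes. No gene passed after adjustment in the blocked fit (lowest adjusted p of a named gene 0.6302, limma). Of the 13 members of the blocked fit, 7 were in the Dlk1-Meg3 cluster, namely Mir323, Mir382, Mir377, Mir329, Mir496a, Mir376b and Mir341. The 1 higher member was Mir302d, higher in the narrow sample of each of the 3 same-numbered pairs (blocked SE 0.04, limma unadjusted p = 0.00057). Mir382 was lower in narrow in all 3 pairs, at 8.57, 7.90 and 7.98 in narrow samples 1, 2 and 3, against 8.81, 8.38 and 8.21 in wide samples, a difference of -0.32 with a blocked SE of 0.06.

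**Figure D1:**
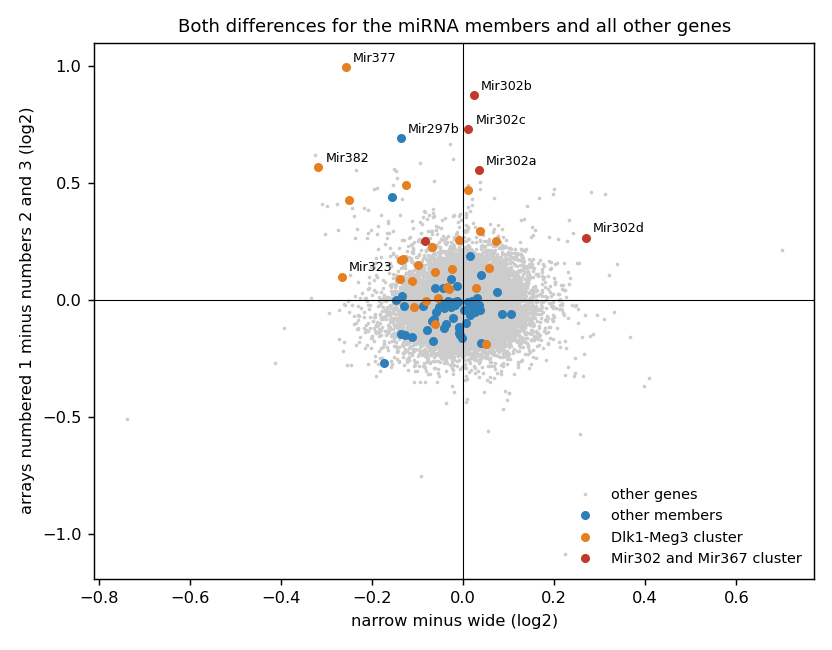
Each point is a gene, with narrow minus wide on the horizontal axis and arrays numbered 1 minus arrays numbered 2 and 3 on the vertical axis, both on the log2 scale. The members run from -0.32 to 0.27 across and from -0.27 to 1.00 upward, with Mir377, Mir302b, Mir302c and Mir297b as the 4 highest of all genes.

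The second comparison asked whether members differed between the 3 replicate numbers, with cavity as a term. No member passed after adjustment (limma F-test, Benjamini-Hochberg over all genes), where 1 gene of 19938 (0.00502%) did. The lowest adjusted p among members was 0.0525, for Mir302c, followed by 0.0862 for Mir377 (limma). At unadjusted p under 0.05 (limma F-test) there were 27 members (31.8%), against 18% of all genes. The share was 25.7% of the Mir genes that are not members, 58.1% of Snord and 45.0% of Snora genes, so it was not particular to the members. In 18 of the 27 members the arrays numbered 1 were the higher ones, as in 1261 of the 3592 genes at that p among all genes. With the trend and robust options of the same test 12 members passed (adjusted p under 0.05, limma), 14.1% against 5.68% of all genes. They were Mir300, Mir302a, Mir302b, Mir302c, Mir302d, Mir329, Mir363, Mir367, Mir369, Mir377, Mir382 and Mir485.

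Earlier results of these data had singled out number 1, so its difference from the mean of numbers 2 and 3 is given as a description. Both arrays numbered 1 lay above the other 4 arrays in 21 members (24.7%), against 12.2% of all genes, and below them in 12 members (14.1%), against 19.9%. The median difference was -0.01 over members and -0.02 over all genes. By cavity the medians had opposite signs in members, at -0.05 in narrow and 0.04 in wide, against -0.03 in narrow and -0.01 in wide over all genes. The spread was wider, with an SD of 0.24 over members and 0.10 over all genes. Other short RNA genes spread as well, with an SD of 0.27 over Snord genes, 0.23 over Snora genes and 0.14 over the Mir genes that are not members. By rank among 19938 genes, the 4 highest differences belonged to members, in the order Mir377 (1.00), Mir302b (0.88), Mir302c (0.73) and Mir297b (0.69), and the noncoding RNA gene Meg3 (0.61) came at rank 7. A difference of 1.00 is a 2.0-fold one.

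The Mir302 and Mir367 cluster lies on chromosome 3, inside the span of Larp7, which is read from the other strand and encodes a protein that binds a small nuclear RNA of transcription control, and of Gm51018, a noncoding RNA gene read from the same strand as the hairpins. All 5 of its genes are members, and all 5 were at unadjusted p under 0.05 between replicate numbers (limma F-test), against 18% of all genes. In 4 of 5 both arrays numbered 1 lay above the rest, against 12.2% of all genes. Mir302b had 7.48, 6.45 and 6.93 in narrow samples 1, 2 and 3, against 7.57, 6.61 and 6.60 in wide samples (6.95 ± 0.51 and 6.93 ± 0.56, SD, n = 3 each). Its narrow and wide means differed by 0.02, while number 1 stood apart in each cavity. Mir302c had 7.35, 6.50 and 6.69 in narrow, against 7.30, 6.53 and 6.66 in wide samples, so same-numbered samples lay within 0.05 of each other.

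Mir302a had 7.62, 6.79 and 6.99 in narrow, against 7.36, 6.91 and 7.03 in wide samples. Mir367 had 5.09, 4.74 and 4.86 in narrow, against 5.12, 4.91 and 4.91 in wide samples. In these 4 genes number 1 was the highest sample in either cavity and number 2 the lowest in narrow cavities. Mir302d had 8.36, 7.92 and 8.26 in narrow, against 8.09, 7.72 and 7.92 in wide samples, and the value of narrow 3 lay above that of wide 1.

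**Figure D2:**
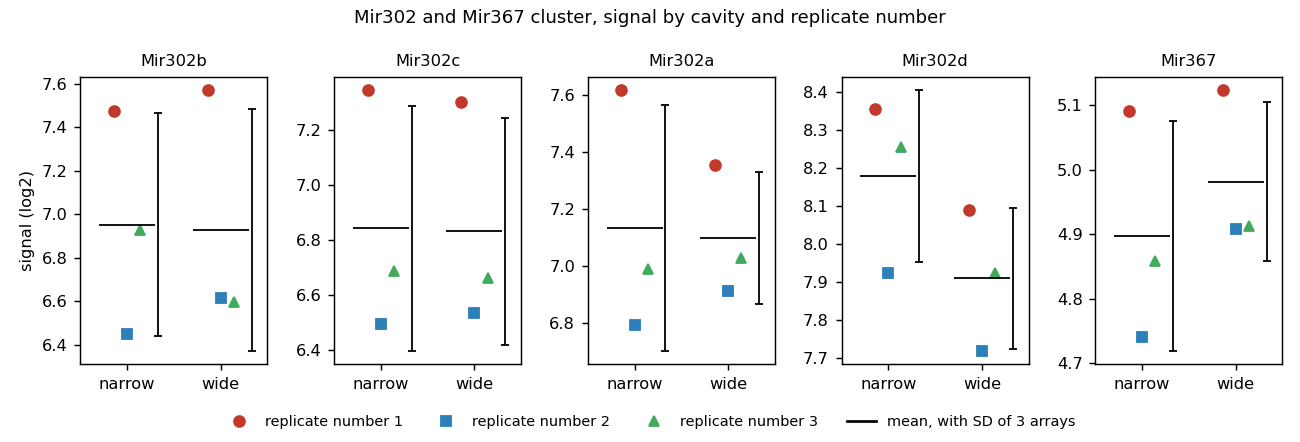
Log2 signal of the 5 members of the Mir302 and Mir367 cluster on the vertical axes, by cavity, with 1 point per sample, lines at the mean and bars for the SD of 3 samples. The red circles of replicate number 1 lie highest within each cavity, and narrow and wide means differ by at most 0.27.

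Across the cluster the median difference of number 1 from numbers 2 and 3 was 0.56, at 0.73 in narrow and 0.39 in wide cavities. Larp7 itself had 11.96, 11.86 and 11.87 in narrow, against 11.97, 11.88 and 11.89 in wide samples, a difference of number 1 of 0.09 in the same direction. Mir363, from another cluster on the X chromosome but with the seed of miR-367-3p, had 6.49, 5.89 and 5.81 in narrow, against 6.38, 6.21 and 6.08 in wide samples, and its number 1 difference was 0.44. Shared seeds did not always go with like values: miR-329-3p and miR-362-3p share the seed ACACACC, and the number 1 difference was 0.43 for Mir329 and 0.02 for Mir362. Epiblast markers, listed as a check of the tissue, had a mean log2 signal of 11.58 to 11.60 in the arrays numbered 1, against 11.46 to 11.54 in the others. Their part in the result was not tested.

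Because all 5 genes were highest in number 1 of each cavity, the window around the start of Gm51018 at chr3:127544839-127545138 (plus strand, RefSeq GRCm38.p6), which ends before Mir302b, is shown with the motif TATAAA in capitals.
Gm51018: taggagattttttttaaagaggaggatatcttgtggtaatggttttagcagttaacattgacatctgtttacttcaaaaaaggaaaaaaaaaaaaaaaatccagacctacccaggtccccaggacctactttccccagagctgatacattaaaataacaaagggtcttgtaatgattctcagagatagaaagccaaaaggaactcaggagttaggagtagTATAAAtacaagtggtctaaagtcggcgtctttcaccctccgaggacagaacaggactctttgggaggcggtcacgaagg
On both strands, TATAAA was found once, at base 221 of the window. It occurs in 13.6% of the 32851 windows of this length in the table. ATGCAAA, letters of an octamer bound by POU factors, was not in this window and is in 4.6% of windows, and CATTGT, letters of a Sox motif, was not in it and is in 12.6%. As only TATAAA was found, no overlap between motifs was possible.

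The Dlk1-Meg3 cluster on chromosome 12 held 26 members of the 61 Mir genes that RefSeq places between Dlk1, which encodes a transmembrane protein of the Notch ligand family, and Dio3, a deiodinase gene. In 12 of the 26 (46.2%, against 12.2% of all genes) both arrays numbered 1 lay above the rest, and in 1 below (against 19.9% of all genes). Between replicate numbers 11 (42.3%, against 18% of all genes) were at unadjusted p under 0.05 (limma F-test). Members that share a transcript are not independent in these counts. The median number 1 difference was 0.14, at 0.06 in narrow and 0.22 in wide cavities. Mir377 had 7.16, 6.25 and 6.31 in narrow samples 1, 2 and 3, against 7.58, 6.48 and 6.44 in wide samples (6.57 ± 0.51 and 6.83 ± 0.65, SD, n = 3 each). Its narrow minus wide difference was -0.26 ± 0.34 (SE), and all 4 samples numbered 2 or 3 lay below both numbered 1.

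Mir382 repeated this with 0.57, its samples numbered 1 at 8.57 in narrow and 8.81 in wide cavities. Mir369 had 6.88, 6.63 and 6.56 in narrow, against 7.28, 6.51 and 6.66 in wide samples. Mir329 had 6.99, 6.69 and 6.78 in narrow, against 7.47, 6.85 and 6.89 in wide samples. In both, wide 1 was the highest of the 6 samples, and the number 1 difference was larger in wide (0.70 for Mir369, 0.60 for Mir329) than in narrow cavities (0.28 and 0.26). Whether the number 1 difference itself varied with the cavity was not tested. Mir485 was even between cavities, at 0.24 in narrow and 0.27 in wide.

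**Figure D3:**
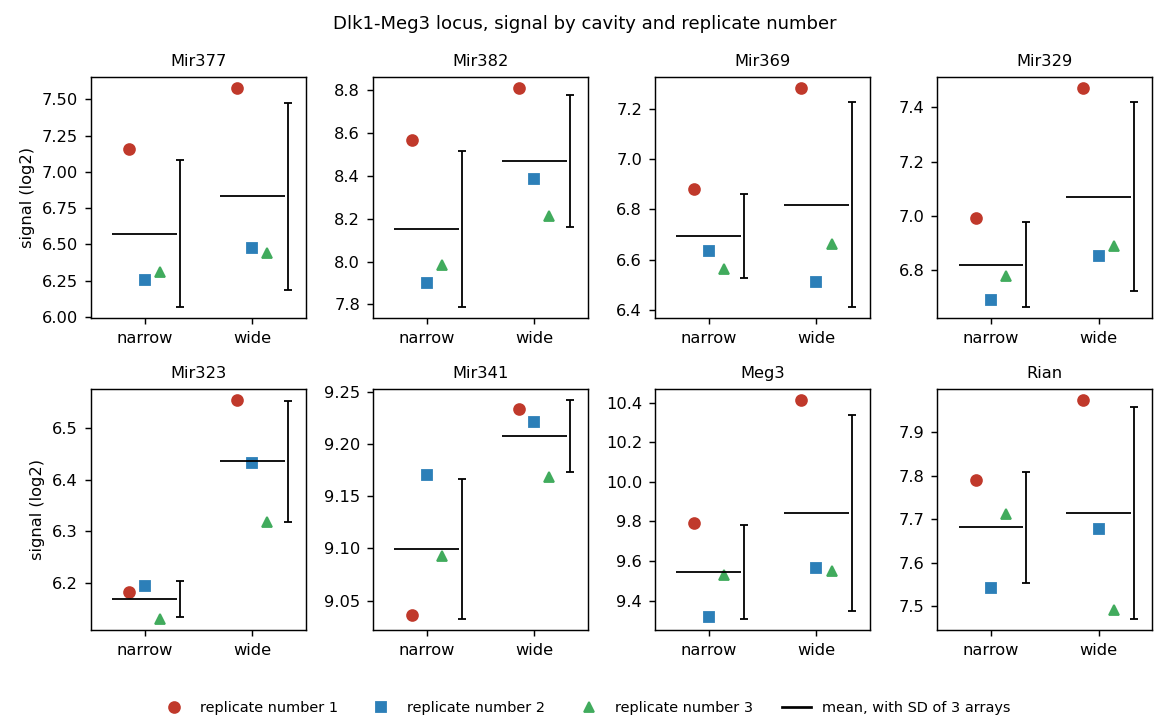
Log2 signal of 6 members of the Dlk1-Meg3 cluster and of the noncoding RNA genes Meg3 and Rian on the vertical axes, by cavity, with 1 point per sample, lines at the mean and bars for the SD of 3 samples. Mir377, Mir382, Mir369, Mir329, Meg3 and Rian have both samples numbered 1 on top, whereas Mir323 separates the cavities and Mir341 nearly does.

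Values were also laid out along the locus, and the difference between its stretches was not tested. Ordered as in RefSeq, the 5 members before Mir379 (Mir337, Mir431, Mir434, Mir341 and Mir370) had a median number 1 difference of -0.03, and 1 of them, Mir434, had both arrays numbered 1 on top. The 21 members from Mir379 on had a median of 0.17, at 0.08 in narrow and 0.27 in wide cavities. Over both cavities together no value lay below 0, but in narrow cavities those of Mir299a, Mir380, Mir381, Mir409 and Mir494 did. In 11 of 21 both arrays numbered 1 were on top (52.4%, against 12.2% of all genes). The members with values near 0 in that stretch were Mir494 (0.01), Mir409 (0.05), Mir299a (0.05) and Mir495 (0.06). Mir431, which with Mir434 and Mir127 is read opposite to the gene Rtl1, had 7.80, 8.01 and 8.01 in narrow, against 7.78, 7.87 and 8.02 in wide samples, and was the 1 member of the locus with number 1 lowest in both cavities.

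**Figure D4:**
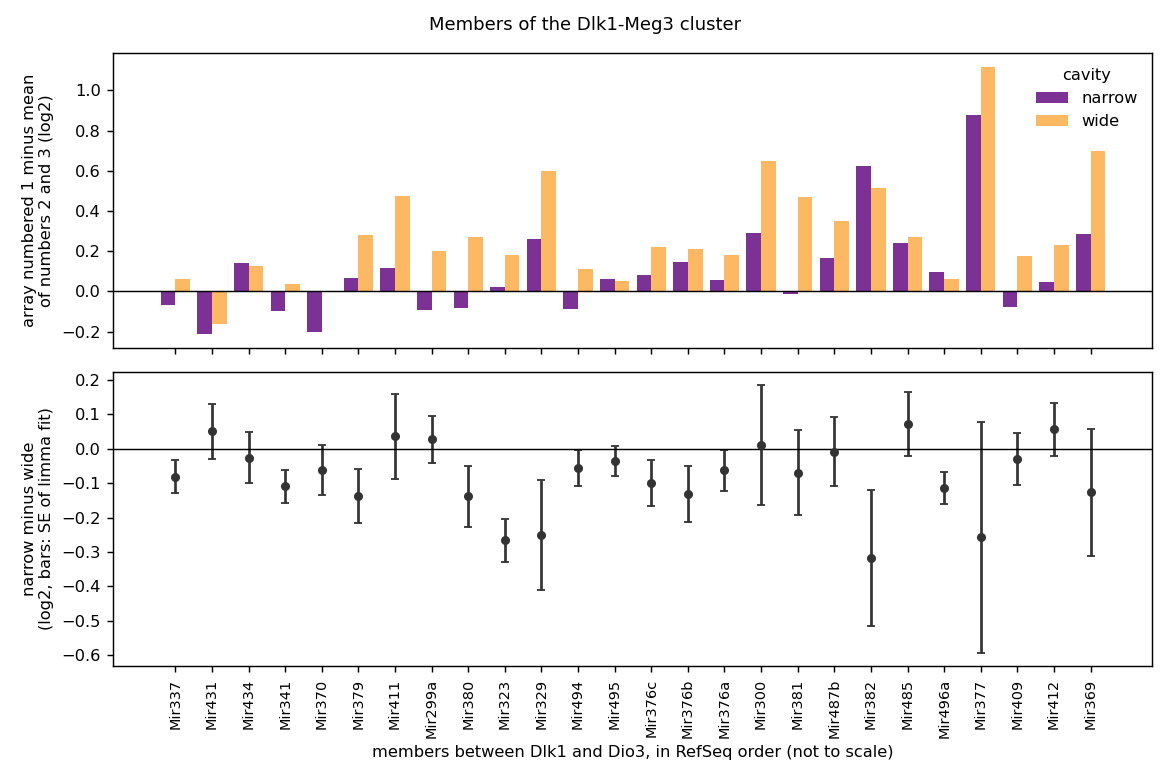
Members of the Dlk1-Meg3 cluster in RefSeq order on the horizontal axis, not to scale. Bars in the upper panel give the array numbered 1 minus the mean of numbers 2 and 3 in each cavity, and points in the lower panel give narrow minus wide with the SE of the limma fit, both on the log2 scale. The tallest bars are those of Mir377 (0.88 in narrow and 1.12 in wide), and the lowest point is that of Mir382 at -0.32.

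The long transcripts of the locus gave values of the same sign. Meg3 had 9.79, 9.32 and 9.53 in narrow samples 1, 2 and 3, against 10.41, 9.56 and 9.55 in wide samples, a number 1 difference of 0.61 and a narrow minus wide difference of -0.30 ± 0.23 (SE, limma unadjusted p = 0.22). Rian, the host of the small nucleolar RNA genes of the locus, had 7.79, 7.54 and 7.71 in narrow, against 7.97, 7.68 and 7.49 in wide samples. The protein-coding genes expressed from the paternal chromosome had number 1 differences smaller in size, of -0.15 for Dlk1, 0.10 for Rtl1 and 0.05 for Dio3. That of Dlk1 had the other sign to Meg3, with both arrays numbered 1 below the rest. Mir genes of the locus that are not members had values of either sign in both stretches. The 5 before Mir379 had a median number 1 difference of 0.04, with both arrays numbered 1 on top in Mir127 (0.55) and Mir136 (0.22), so the early stretch also held high values. The 9 from Mir379 on had a median of 0.19, from -0.30 for Mir666 to 0.41 for Mir154.

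The 54 members outside both clusters had a median number 1 difference of -0.03. Both arrays numbered 1 were on top in 5 (9.26%, against 12.2% of all genes) and lowest in 11 (20.4%, against 19.9%), so neither share exceeded that of all genes by much. The 5 were Mir297b, Mir361, Mir363, Mir423 and Mir466. Mir297b, in an intron of Sfmbt2 with other repeat-related microRNA genes, had 6.83, 6.21 and 6.34 in narrow, against 7.15, 6.66 and 5.98 in wide samples. Sfmbt2 itself varied little, from 12.12 to 12.17 over all samples, with a number 1 difference of 0.02.

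Lower values in number 1 were smaller in size. Mir425, which lies in Dalrd3, had 6.75, 6.93 and 7.11 in narrow, against 6.92, 7.21 and 7.18 in wide samples (number 1 difference -0.27, the lowest of the members). Mir484 had 6.38, 6.57 and 6.59 in narrow, against 6.37, 6.54 and 6.52 in wide samples, a difference of -0.18. In both genes each sample numbered 1 lay below the 4 others. Mir328 (-0.17), Mir338 (-0.15), Mir448 (-0.14) and Mir490 (-0.16) had the same order. Mir338 lies in Aatk (-0.12), a kinase gene, and Mir448 in Htr2c (-0.05), a serotonin receptor gene.

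Host genes and the members inside them were set side by side. Mir326 lies in Arrb1, the gene of a beta-arrestin, and had a number 1 difference of -0.14, of the other sign to the 0.20 of Arrb1. Mir335 lies in Mest, an imprinted gene, and had 0.03, against 0.12 for Mest. Ppargc1b, the host of Mir378a, had -0.18 and both arrays numbered 1 below the rest, against -0.03 for Mir378a. Number 1 differences were -0.07 for Evl, -0.09 for Clcn5, 0.04 for Myh7b and -0.06 for Igf2, the hosts of Mir342, Mir362, Mir499 and Mir483. Those members had -0.08, 0.02, -0.12 and -0.09 in the same order, so Mir362 and Mir499 had the other sign to their hosts. AU018091, a neighbour gene listed with the clusters, had 0.03. Between cavities the 17 measured hosts and neighbours had 0 members past the adjusted threshold (limma), with Meg3 lowest at -0.30 and Ppargc1b highest at 0.13.

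Base composition went with the number 1 difference. Over the 78 members with a hairpin sequence, GC content and the number 1 difference had Spearman's rho -0.47 and Pearson's r -0.32. Within cavities rho was -0.56 in narrow and -0.27 in wide, and with the narrow minus wide difference it was -0.05. These points share 6 arrays and many share a transcript, so the correlations describe these arrays and no test was made. Outside both clusters rho was -0.46 over 47 members, and in other Mir genes it was -0.29 over 171 genes. In those 171 genes GC content and the narrow minus wide difference had rho -0.32, unlike the -0.05 of the members, and the difference between these values was not tested.

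**Figure D5:**
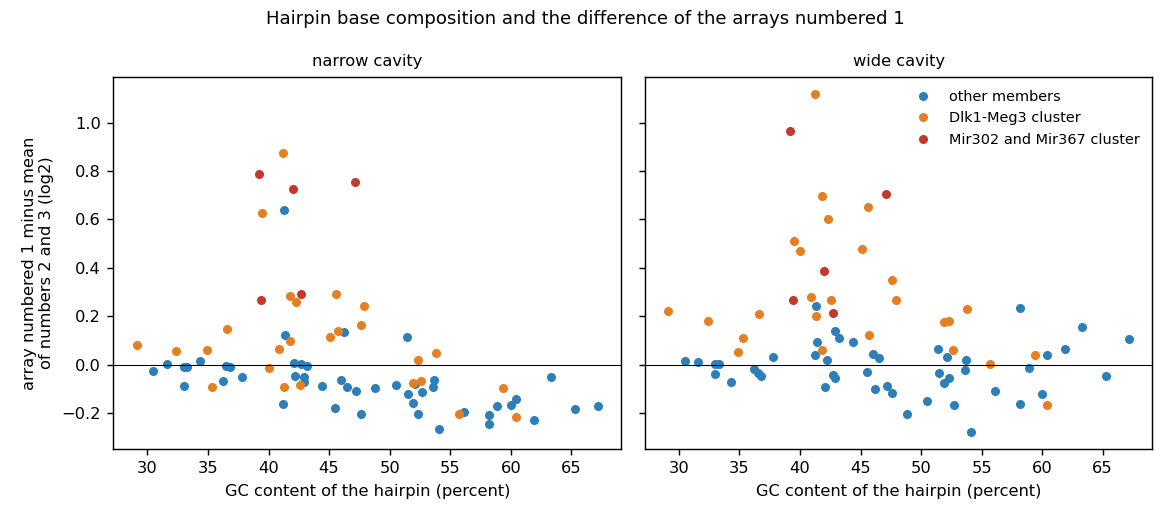
GC content of the hairpin in percent on the horizontal axis and the array numbered 1 minus the mean of numbers 2 and 3 on the vertical axis (log2), for narrow (left) and wide (right) cavities, with 1 point per member. The points above 0.5 all have hairpins of less than 50% GC, and in narrow cavities most hairpins of more than 50% GC lie below 0.

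Divided at their median GC of 45.3%, the 39 members of lower GC had a median difference of 0.05, with 25 above 0, and the 39 of higher GC had -0.05, with 11 above 0. Another class of short RNA genes was higher in the same arrays. The 31 genes of C/D box small nucleolar RNAs (Snord) had a median number 1 difference of 0.19, with both arrays numbered 1 on top in 16 (51.6%). The 20 genes of H/ACA box RNAs (Snora) had -0.01, with 6 on top, and the 206 Mir genes that are not members had -0.05, with 25 on top (12.1%). Markers of trophoblast giant cells and the ectoplacental cone had mean log2 signals of 8.62 to 8.63 in the arrays numbered 1, against 8.70 to 8.82 in the others. Only 2 of the 4 listed were measured, and 1 of them, Tpbpa, was dim at percentile 3.83. Ranges overlapped for visceral endoderm (12.19 to 12.22, against 12.19 to 12.26), extraembryonic ectoderm (11.60 to 11.63, against 11.56 to 11.68) and parietal endoderm (11.65 to 11.71, against 11.68 to 11.75). The part of base composition, short RNA genes or these markers in the result was not tested.

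The genes that make and use microRNAs differed by at most 0.14 between cavities. Of 37 listed, 35 were measured, 33 of them above the median gene signal. None passed after adjustment and 1 was at unadjusted p under 0.05 (2.86%, limma), against 3.4% of all genes. This was Prkra, a protein partner of Dicer1, with 7.67, 7.64 and 7.76 in narrow, against 7.55, 7.46 and 7.65 in wide samples (0.14 ± 0.06, SE, limma unadjusted p = 0.046). Its groups overlapped, since narrow 2 lay below wide 3.

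Of the other steps, the Microprocessor partner Dgcr8 differed by 0.06 ± 0.05, its cofactor Smad5 by 0.08 ± 0.04, Dicer1 by -0.04 ± 0.04, the Argonaute gene Ago3 by -0.08 ± 0.04 and the RNA-editing gene Adar by -0.05 ± 0.04 (narrow minus wide, SE, limma). The median over the 35 was 0.02, against 0.00 over all genes. By sign alone 12 were lower and 23 higher in narrow cavities, 34.3% lower against 49.1% of all genes. Between replicate numbers 4 of the 35 were at unadjusted p under 0.05 (11.4%, limma F-test), fewer in share than the 18% of all genes. Their median number 1 difference was -0.01.

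Genes named in the literature as targets of the miR-290 and miR-302 families were listed as well, 12 in number with 11 measured. Of these 1 was at unadjusted p under 0.05 between cavities (9.09%, limma), against 3.4% of all genes, and 0 passed after adjustment. A single gene of 11 says nothing of the list. That gene was Lefty1, an inhibitor of Nodal signalling, with 7.37, 7.51 and 7.43 in narrow, against 7.08, 7.20 and 7.09 in wide samples, a difference of 0.31 ± 0.05 (SE, limma). Lefty2, its paralog, averaged 6.02 ± 0.15 in narrow and 6.14 ± 0.16 in wide samples (SD, n = 3 each), a difference smaller than its spread. Lats2, a Hippo pathway kinase, differed by 0.12 ± 0.06, and Rbl2, a pocket protein of the cell cycle, by 0.09. With the number 1 arrays set against the rest, the 11 had a median of -0.02, against 0.56 for the Mir302 and Mir367 cluster.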

How the data were processed

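The authors deposited 1 log2 signal for each feature on each of 6 Affymetrix Mouse Gene 1.0 ST arrays. The log2 scale was read from their range, 4.33 to 14.31, while background correction and normalization are steps not given in the sources used here. Since array medians nearly matched, values were used without further scaling, so a change in total RNA per embryo would not be seen. The number of arrays limits the precision. Per the labels, RNA from pools of 30 embryos was isolated with a column kit and labelled with biotin.

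Of 28853 features, 21789 named 1 gene through the platform annotation, and the feature with the highest mean stood for each of 19938 genes. RefSeq changed 0 member symbols. Differences (narrow minus wide) were tested for all genes with limma 3.58.1 in R 4.3.3 (lmFit and eBayes, two-sided, no covariate) with Benjamini-Hochberg adjustment over all 19938 genes and a threshold of 0.05. Replicate numbers were compared by a limma F-test with cavity as a term. Both fits were run on simulated data whose noise was independent between arrays, so the runs do not cover the likeness of same-numbered arrays. The design text calls the samples biological replicates, so p-values measure the spread between pools.

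Deviations from the group mean correlated at 0.516, 0.176 and 0.272 between the narrow and wide arrays numbered 1, 2 and 3, all above 0.1, and on this basis same-numbered samples count as pairs, although narrow 2 correlated as well with wide 3 (0.178). The fit was therefore repeated with the number as a block.

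Members, gene lists and tests were chosen with earlier results of these data known. Named members were all of the Mir302 and Mir367 cluster, those with the smallest p in each direction (up to 8) and the 8 with the smallest F-test p, the 5 with the largest SD and the 5 with the highest signal, and up to 3 from each cluster of 3 or more members (Mir genes at most 10 kb apart, or between Dlk1 and Dio3). All measured host genes and the 6 processing genes with the smallest p were named too. Any other gene was chosen after its values were seen. Alternatives changed the filter on dim genes, the features used, the scaling, the variance model, the block, the test per gene and the arrays included. Sequences are those of RefSeq, GRCm38.p6.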

Additional observations from a re-analysis of the deposited data

How the results depend on the processing

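No member and no processing gene passed the adjusted threshold between cavities under any alternative run. Of 808 recomputed differences of 56 named genes, 759 kept their sign, 49 changed sign without having passed, and 0 passed (lowest adjusted p = 0.6302, limma). The count of members at unadjusted p under 0.05, 2 as reported, was 13 with the replicate block (7.25% of all genes). It was 1 among genes above the 50th percentile of mean signal (3.85% of those genes) and 1 with arrays centred on their median (3.59% of all genes). With a test per gene of unequal variances it was 0 (2.39% of all genes). Leaving out each array gave 1 (without wide 2, where 2.49% of all genes were at that p) to 7 (without wide 1, 4.18%), and the arrays numbered 2 and 3 alone, an alternative chosen after seeing the data, gave 14 (4.58% of all genes) and moved the median difference to 0.0026. Median differences of the members were otherwise between -0.068 and -0.013. The cause of these shifts was not tested. Members with all narrow values below all wide values numbered 0 with the filter, which keeps 9 members, and members with all above numbered 1 with quantile normalization. Between replicate numbers the count past the adjusted threshold, 0 as reported, was 12 with trend and robust options (5.68% of all genes). It was 2 with the filter, 1 with the mean of a gene's features and 1 with median centring. For these 3 settings the share of all genes is not given here, so the counts cannot be set against it. With the filter 4 members were at unadjusted p under 0.05 and 1 had both arrays numbered 1 on top, since fewer members were tested. Prkra, the 1 processing gene at unadjusted p under 0.05, gave a count of 0 with the filter, trend and robust options, the test per gene and the arrays numbered 2 and 3 alone, and 0 to 1 when an array was left out. The pairing or block gave no call after adjustment. Values near the lowest in the table limit what dim members can show.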

Other observations

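Features that named a Mir gene of the range together with other genes, 18 in number, had number 1 differences from -0.06 to 0.55. Their narrow minus wide differences ran from -0.29 to 0.07. The feature naming Mirg and Mir410, at the far end of the Dlk1-Meg3 locus, had 8.86, 8.33 and 8.37 in narrow samples 1, 2 and 3, against 9.21, 8.63 and 8.59 in wide samples, so each narrow sample lay below the wide sample of its number. Of the 18 features, 9 named the same set of near-identical copies of Mir467a, all with 0.42, in the same stretch of Sfmbt2 as Mir297b, and count as a single value. The 9 others had a median of 0.16.

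Outside the numbered range, Mir19a and Mir18 of the cluster that includes Mir17 had number 1 differences of 0.51 and 0.43. Mir19a had 6.18, 5.58 and 5.88 in narrow, against 6.32, 5.75 and 5.75 in wide samples, and both arrays numbered 1 lay above the rest. Mir666, a Mir gene of the Dlk1-Meg3 locus that is not a member, was lowest in the arrays numbered 1, at 8.07, 8.34 and 8.46 in narrow, against 8.13, 8.39 and 8.42 in wide samples.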
